A study of Mus musculus with 12 samples.

Results

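The genes that copy DNA in S phase were followed over 4 groups of HoxB8 cells, as a set of 48 mouse genes with known roles. The set was chosen with earlier results of these data known. All 48 were found by symbol among the 24411 symbols of the count table, and all 48 passed the filter on low counts that left 11578 genes for testing. By role, the set holds 10 genes of origin licensing, 6 of helicase activation, 9 of polymerases and primase, 9 of the sliding clamp, its loader and the single-strand binding protein RPA, 2 of Okazaki fragment processing, 5 of nucleotide supply, 3 of histone mRNA handling and chromatin assembly, and 4 of the cyclin E and E2F switch that starts S phase.

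HoxB8 cells are mouse bone marrow progenitors kept dividing by a Hoxb8 that works while estrogen is in the medium. All 4 groups carried a pMIG and a pMICH vector, and estrogen had been withdrawn for 24 h in all of them before RNA was extracted. Asxl1-MT2/T618I cells carried Asxl1-MT2 in pMIG, an Asxl1 truncation, together with the T618I form of the receptor CSF3R in pMICH. Empty/T618I cells carried an empty pMIG with T618I, Asxl1-MT2/Empty cells carried Asxl1-MT2 with an empty pMICH, and Empty/Empty cells carried both vectors empty. Each group had 3 libraries, named here by the letters A, B and C of the deposited columns. Both inserts were overexpressed in 1 cell line, and nothing in the labels says that the libraries of a group were separate cultures. The tests therefore weigh differences against a spread between libraries that may be technical.

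Replication starts at origins that are licensed in G1, when the origin recognition complex, Cdc6 and Cdt1 load the ring of Mcm2 to Mcm7 proteins onto DNA. Cdc45 and the GINS proteins turn that ring into the active helicase, primase and DNA polymerase alpha lay down primers, and polymerases delta and epsilon extend them, held on DNA by the Pcna clamp. Cyclin E with Cdk2 and the E2F transcription factors drive the switch into S phase, and many replication genes are known E2F targets. Myeloid progenitors divide quickly, and granulocytes leave the cell cycle as they mature.

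The libraries held 9341984 to 10252291 counts. Asxl1 reads stood at 1004 ± 83.7 CPM (normalised counts, on the TMM-scaled library size) in Asxl1-MT2/T618I, 149 ± 16.9 in Empty/T618I, 1744 ± 79.8 in Asxl1-MT2/Empty, against 119 ± 4.53 in Empty/Empty (SD, n = 3 each), and Socs3, a known target of cytokine receptor signalling, at 229 ± 34.04 CPM in Asxl1-MT2/T618I, 165 ± 12.6 in Empty/T618I, 10.7 ± 0.360 in Asxl1-MT2/Empty, against 12.7 ± 0.972 in Empty/Empty. For 1 library, titled Empty/Empty 3, the genotype label names T618I against the title, and its column letter is not known, so each Empty/Empty library was also counted as Empty/T618I in turn. Socs3 stood at 13.8, 11.9 and 12.4 CPM in libraries A, B and C of Empty/Empty, and the lowest library with T618I was at 151 CPM. Each swap thus mixes libraries of unlike Socs3 level in 1 group, and a call lost under it may reflect that mix. The cells' state differed between groups: 11 detected markers of mature neutrophils summed to 21397 ± 3916 CPM in Asxl1-MT2/T618I, 3646 ± 566 in Empty/T618I, 2076 ± 452 in Asxl1-MT2/Empty, against 1816 ± 422 in Empty/Empty, and all 11 were above 0. The 7 markers of granulocyte progenitors, all above 0, summed to 16445 ± 2315 CPM in Asxl1-MT2/T618I, 18000 ± 1667 in Empty/T618I, 40980 ± 2389 in Asxl1-MT2/Empty, against 39396 ± 4793 in Empty/Empty. The 11 of mast cells and basophils, all above 0, summed to 2866 ± 120.5 CPM in Asxl1-MT2/T618I, 4363 ± 1221 in Empty/T618I, 741 ± 23.3 in Asxl1-MT2/Empty, against 1239.8 ± 100.4 in Empty/Empty. The 8 monocyte markers summed to 1127 ± 183 CPM in Asxl1-MT2/T618I, 508 ± 28.4 in Empty/T618I, 752 ± 49.6 in Asxl1-MT2/Empty, against 586 ± 48.9 in Empty/Empty. The other lists were lower: erythroid and megakaryocyte markers (3 of 10 at 0 in every library) summed to 35.5 to 250.2 CPM per library, stromal ones (1 of 6 at 0) to 200.1 to 341 CPM and lymphoid ones (4 of 7 at 0) to at most 1.06 CPM. By group, the erythroid and megakaryocyte sum was 141 ± 24.4 CPM in Asxl1-MT2/T618I and 220 ± 44.6 in Empty/T618I. Without T618I it was 38.4 ± 2.54 CPM in Asxl1-MT2/Empty and 60.5 ± 7.5 in Empty/Empty. The part of these shifts in the results below was not tested, and in bulk RNA fewer cells of a type and less RNA per cell cannot be told apart.

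The replication genes summed to a slightly lower level in Asxl1-MT2/T618I cells than in the other groups, while Ccne1, Ccne2 and E2f2 mRNA were higher in both groups with T618I than in both without it. The 48 genes summed to 6743, 7035 and 7323 CPM in Asxl1-MT2/T618I, 7458, 7562 and 7516 in Empty/T618I, 7647, 7475 and 7477 in Asxl1-MT2/Empty, against 7353, 7461 and 7609 in Empty/Empty. The 3 Asxl1-MT2/T618I libraries were the 3 lowest of the 12, and the other 3 groups overlapped. Within that group, library A had the lowest sum of replication genes and the highest sum of mature neutrophil markers, 25633 CPM against 20650 in B and 17909 in C. Most of the set moved little: the ratio of the highest to the lowest group mean had a median of 1.20, with a range of 1.06 to 8.61, against a median of 1.31 over the 7376 tested genes at or above the lowest level in the set.

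In Asxl1-MT2/T618I against Empty/T618I, which asks what Asxl1-MT2 adds to T618I, 13 of the 48 genes passed an edgeR adjusted p of 0.05. E2f2 rose and 12 genes fell, among them Orc1, Pola1, Pold2 and Cdc6. The share called, 27.1%, lies below the 43.9% called over all genes tested. By direction, 25.4% of all genes were higher and 18.5% lower, against 1 and 12 of the 48. The median log2 fold change was -0.10 over the set and 0.01 over all genes. Without Asxl1-MT2/T618I library A the count was 7, and 6 of the 13 calls (Orc1, Cdc6, Pola1, Pold2, Dut and E2f2) held under all 19 alternatives other than the swapped labels. The counts of lost calls given for single genes are likewise over those 19, and the swaps are given apart.

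In Asxl1-MT2/T618I against Asxl1-MT2/Empty, which gives the change with T618I where Asxl1-MT2 is present, 26 of the 48 genes were called, 5 higher and 21 lower, or 54.2% of the set. The Asxl1 level was also lower in Asxl1-MT2/T618I, as given above, so T618I and Asxl1 level cannot be told apart here. Over all genes tested, 49.8% were called, 26.9% higher and 22.8% lower, so the set's overall share is near the background. The median was -0.18 over the set and -0.02 over all genes. The count fell to 16 without Asxl1-MT2/T618I library A, 14 without its library B and 17 without Asxl1-MT2/Empty library B, and 13 of the 26 calls held under all 19 alternatives other than the swapped labels. Moving 1 Empty/Empty library into Empty/T618I left 14 calls for A, 14 for B and 20 for C.

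In Asxl1-MT2/T618I against Empty/Empty, 19 of the 48 were called, 4 higher and 15 lower. That is 39.6% of the set against 50.6% of all genes, of which 27.5% were higher and 23.1% lower. The medians were -0.15 over the set and -0.01 over all genes, and 12 of the 19 calls held under the same 19 alternatives. Moving 1 Empty/Empty library into Empty/T618I kept 13 of the 19 for A, 14 for B and 11 for C. In Empty/T618I against Empty/Empty, the change with T618I alone, 10 were called, 6 higher and 4 lower, or 20.8% against a background of 33.5%, with 17.6% of all genes higher and 15.9% lower. Medians were -0.05 over the set and 0.00 over all genes, the count was 6 without Empty/T618I library B or without Empty/Empty library B, and 5 of the 10 calls held under those 19 alternatives. None of the 10 held under the label swaps too: moving any 1 Empty/Empty library into Empty/T618I gave at most 2 calls in the set here, and at most 995 over all genes. These comparisons share groups, so their values are given side by side and not as separate evidence.

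The scaling matters for a set whose changes are this small. Scaling by library totals alone shifted the median log2 fold change of all genes by -0.13, -0.11 and -0.13 in the comparisons of Asxl1-MT2/T618I with Empty/T618I, Asxl1-MT2/Empty and Empty/Empty, and the counts of genes lower in Asxl1-MT2/T618I became 26, 30 and 34. The fold changes below are relative to the bulk of genes, as TMM scaling sets it.

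**Figure D1:**
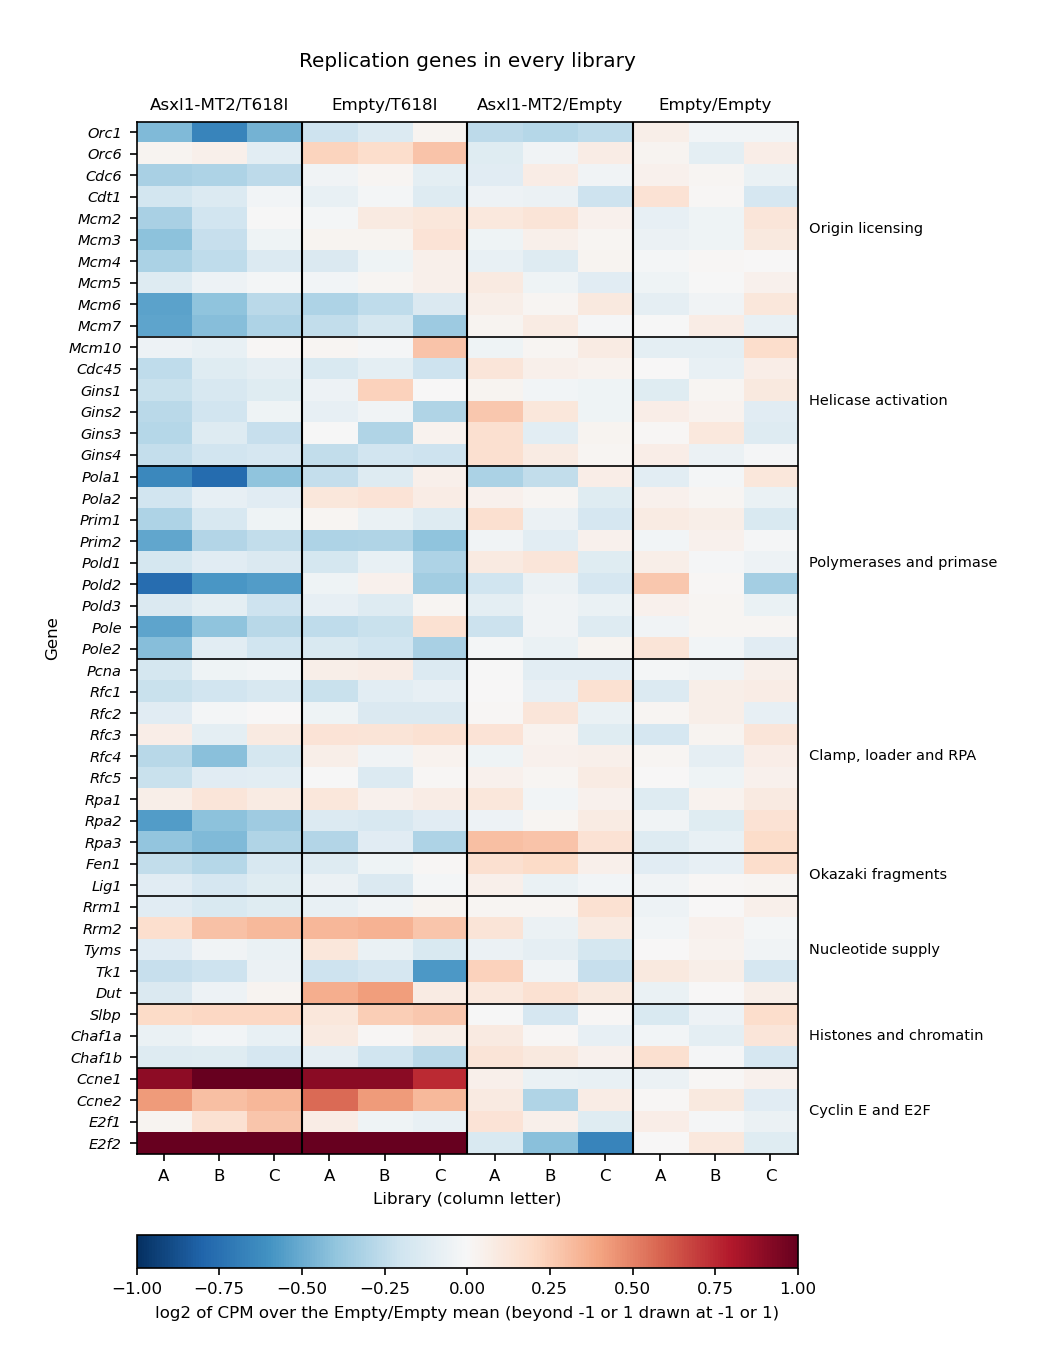
Level of each of the 48 genes (rows, grouped by role) in each library (columns), as log2 of its CPM over the mean of the 3 Empty/Empty libraries. Ccne1, Ccne2 and E2f2 are above that mean in all 6 libraries with T618I, and Orc1, Cdc6, Mcm6, Mcm7, Pola1, Pold2, Rpa2 and Rpa3 are below it in all 3 Asxl1-MT2/T618I libraries.

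The largest changes were in the cyclin E and E2F group. E2f2, an E2F family transcription factor, lies at chr4:136172394-136196057 on GRCm38. Its level was 326, 288 and 261 CPM in Asxl1-MT2/T618I, 159, 136 and 163 in Empty/T618I, 40.04, 33.3 and 28.2 in Asxl1-MT2/Empty, against 44.7, 48.01 and 41.1 in Empty/Empty. All libraries with T618I stood above all without it, and the Asxl1-MT2/T618I libraries stood above the Empty/T618I libraries. The log2 fold change was 3.11 (SE 0.12, edgeR adjusted p = 3.99e-12) in Asxl1-MT2/T618I against Asxl1-MT2/Empty, 2.71 (SE 0.12, edgeR adjusted p = 1.23e-11) against Empty/Empty and 0.93 (SE 0.11, edgeR adjusted p = 4.23e-06) against Empty/T618I. T618I without Asxl1-MT2 gave 1.78 (SE 0.12, edgeR adjusted p = 4.53e-09), and with an Empty/Empty library counted as Empty/T618I it gave 1.45 to 1.57 (edgeR adjusted p = 0.0533 to 0.119). In linear terms E2f2 was 8.61 times its Asxl1-MT2/Empty level and 1.91 times its Empty/T618I level. Per kb of exon, its mean level was 59.8 CPM in Asxl1-MT2/T618I, 31.3 in Empty/T618I, 6.94 in Asxl1-MT2/Empty, against 9.13 in Empty/Empty, and over all libraries it ranked at place 20 of the 48. Library A of Asxl1-MT2/T618I, with the highest mature neutrophil sum, also had the highest E2f2 level.

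Ccne1 and Ccne2 encode cyclins E1 and E2, which activate Cdk2 at the start of S phase. Ccne1 (chr7:38097984-38107534) was at 66.8, 72.7 and 72.5 CPM in Asxl1-MT2/T618I, 67.2, 67.1 and 60.2 in Empty/T618I, 37.3, 34.4 and 34.1 in Asxl1-MT2/Empty, against 34.5, 36.3 and 37.1 in Empty/Empty. The 6 libraries with T618I lay between 60.2 and 72.7 CPM, and the 6 without it between 34.1 and 37.3 CPM. Its log2 fold change was 1.002 (SE 0.08, edgeR adjusted p = 2.64e-08) in Asxl1-MT2/T618I against Asxl1-MT2/Empty and 0.85 (SE 0.08, edgeR adjusted p = 4.28e-07) in Empty/T618I against Empty/Empty. Between Asxl1-MT2/T618I and Empty/T618I the libraries overlapped, at 0.12 (SE 0.08, edgeR adjusted p = 0.226). Ccne2 was at 97.9, 90.02 and 91.9 CPM in Asxl1-MT2/T618I, 108, 98.02 and 91.5 in Empty/T618I, 77.4, 59.2 and 76.7 in Asxl1-MT2/Empty, against 73.5, 77.8 and 67.4 in Empty/Empty. Again all libraries with T618I lay above all without it, by 0.39 (SE 0.10, edgeR adjusted p = 0.00452) on the log2 scale with Asxl1-MT2 and 0.45 (SE 0.10, edgeR adjusted p = 0.0025) without it. Of Ccne2's exon bases, 17.4% are shared with Ints8 on the opposite strand, and the strand setting of the counts is not given in the sources used here. E2f1, the other E2F gene in the set, passed the test in none of the comparisons and was at 80.4, 87.7 and 95.6 CPM in Asxl1-MT2/T618I, 82.9, 76.4 and 74.9 in Empty/T618I, 86.8, 81.4 and 72.4 in Asxl1-MT2/Empty, against 82.4, 78.2 and 75.7 in Empty/Empty, with all groups overlapping.

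**Figure D2:**
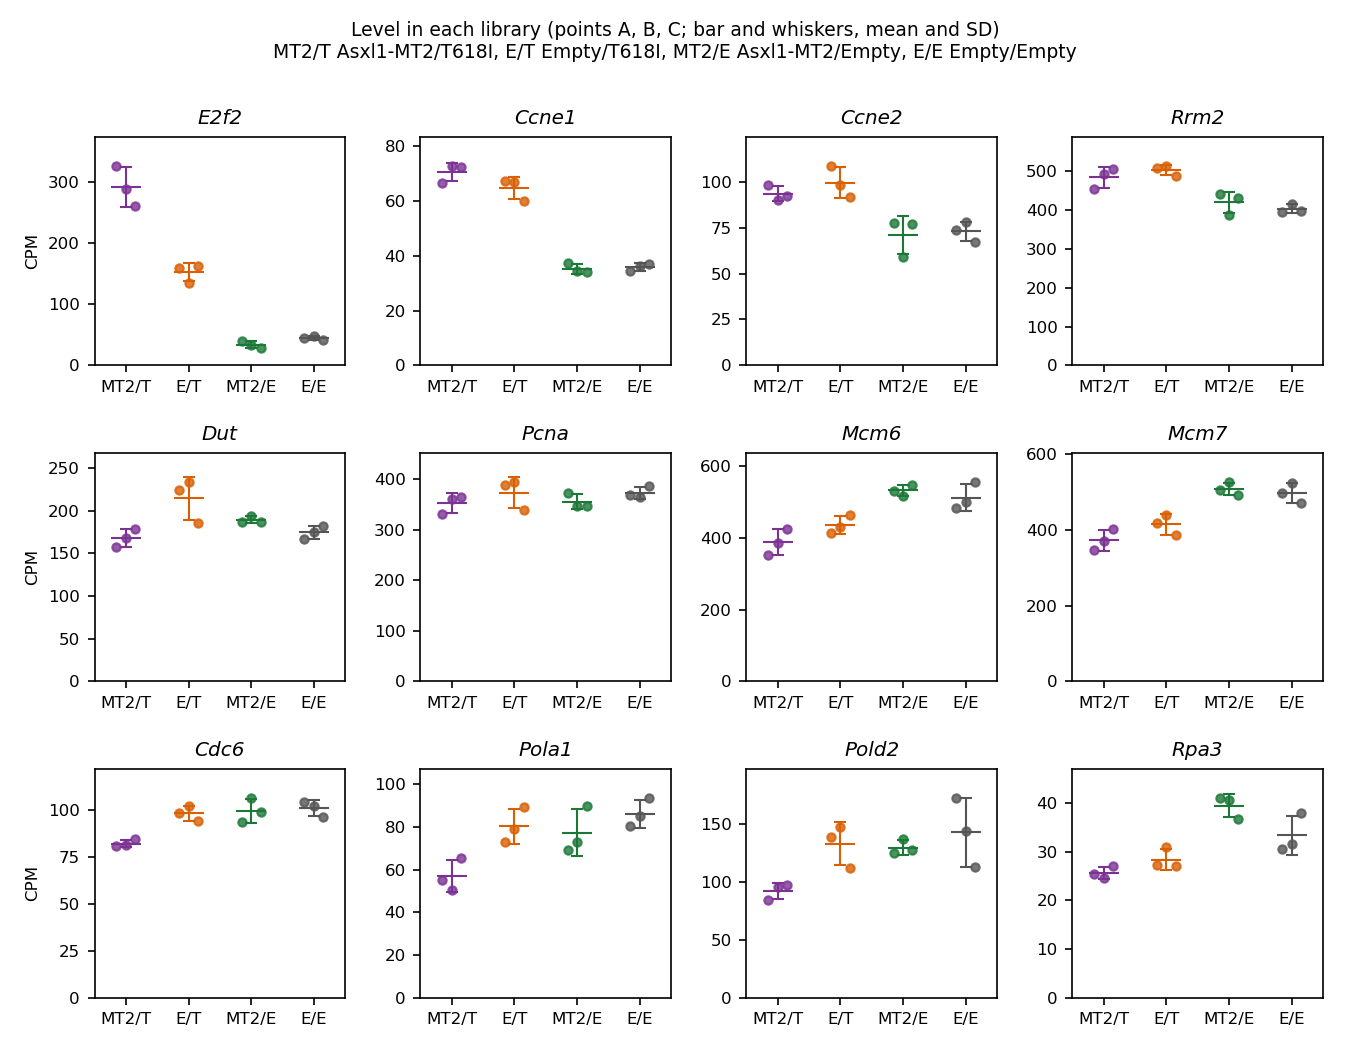
CPM of 12 replication genes in each library (points), with the mean and SD of each group of 3. E2f2, Ccne1 and Ccne2 separate the groups with T618I from those without it, Mcm6 and Mcm7 are lower with T618I, Pola1, Pold2 and Cdc6 are lowest in Asxl1-MT2/T618I, and Pcna overlaps between all groups.

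Of the 10 licensing genes, 5 fell in Asxl1-MT2/T618I against Empty/T618I, 6 against Asxl1-MT2/Empty and 6 against Empty/Empty, and none rose. Those are 50%, 60% and 60% of the group, where 18.5%, 22.8% and 23.1% of all genes were lower and 43.9%, 49.8% and 50.6% were called in either direction. They summed to 2253, 2415 and 2624 CPM in Asxl1-MT2/T618I, below all 9 other libraries, which lay between 2664 and 2962 CPM. Mcm6 and Mcm7 are 2 of the 6 subunits of the Mcm ring. Mcm6 (chr1:128331590-128359664) was at 354, 387 and 426 CPM in Asxl1-MT2/T618I, 413, 431 and 464 in Empty/T618I, 533, 519 and 549 in Asxl1-MT2/Empty, against 483, 499.7 and 556 in Empty/Empty. Every library with T618I was below every library without it, and the 2 groups with T618I overlapped. The log2 fold change of Mcm6 was -0.46 (SE 0.08, edgeR adjusted p = 0.000238) against Asxl1-MT2/Empty and -0.40 (SE 0.08, edgeR adjusted p = 0.000781) against Empty/Empty in Asxl1-MT2/T618I. In Empty/T618I against Empty/Empty it was -0.23 (SE 0.08, edgeR adjusted p = 0.04).

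Mcm7 (chr5:138164583-138172422) followed the same order of groups, at 345, 369 and 401 CPM in Asxl1-MT2/T618I, 418, 439 and 385 in Empty/T618I, 505, 524 and 492 in Asxl1-MT2/Empty, against 495, 522 and 471 in Empty/Empty. Again no library with T618I reached one without it. Its log2 fold changes were -0.45 (SE 0.08, edgeR adjusted p = 0.000167), -0.42 (SE 0.08, edgeR adjusted p = 0.000321) and -0.26 (SE 0.08, edgeR adjusted p = 0.0167) in the same comparisons. In Empty/T618I against Empty/Empty the Mcm6 call was lost under 8 of the 19 alternatives and the Mcm7 call under 3, and both were also lost under all 3 label swaps. Among the 19 were Empty/T618I library A left out and Empty/Empty library B left out for both genes, with adjusted p up to 0.211 for Mcm6 and 0.115 for Mcm7. Against Empty/T618I, neither gene passed the test in Asxl1-MT2/T618I, at -0.17 (edgeR adjusted p = 0.121) and -0.16 (edgeR adjusted p = 0.123). Mcm7 also shares exon bases with Ap4m1, Cops6, Mir25 and Mir93.

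Orc1 and Cdc6 act before the Mcm ring is loaded, Orc1 as the largest origin recognition subunit and Cdc6 as the loader that joins it. Orc1 was at 23.9, 20.6 and 23.4 CPM in Asxl1-MT2/T618I, 28.2, 29.5 and 33.1 in Empty/T618I, 27.1, 26.7 and 27.2 in Asxl1-MT2/Empty, against 33.8, 31.8 and 31.9 in Empty/Empty. The Asxl1-MT2/T618I libraries lay below all others, and Asxl1-MT2/Empty lay below both groups with an empty pMIG. Its log2 fold change was -0.42 (SE 0.10, edgeR adjusted p = 0.00254) against Empty/T618I and -0.52 (SE 0.10, edgeR adjusted p = 0.000292) against Empty/Empty. Cdc6 was at 80.5, 81.2 and 84.1 CPM in Asxl1-MT2/T618I, 98.2, 102 and 94.02 in Empty/T618I, 93.1, 106 and 98.6 in Asxl1-MT2/Empty, against 104, 102 and 96.3 in Empty/Empty. All 3 Asxl1-MT2/T618I libraries were below the other 9, by -0.26 (SE 0.08, edgeR adjusted p = 0.0104) against Empty/T618I, -0.28 (SE 0.08, edgeR adjusted p = 0.00602) against Asxl1-MT2/Empty and -0.30 (SE 0.08, edgeR adjusted p = 0.0034) against Empty/Empty. The Orc1 call against Asxl1-MT2/Empty, at -0.26, was lost under 13 alternatives with adjusted p up to 0.207. In Empty/T618I against Empty/Empty the Cdc6 value was -0.04 (edgeR adjusted p = 0.732).

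Of the other Mcm subunits, Mcm2, Mcm3 and Mcm4 fell in some comparisons and Mcm5 in none. Mcm3 was at 295, 334 and 381 CPM in Asxl1-MT2/T618I, 399, 399 and 432 in Empty/T618I, 381, 405 and 397 in Asxl1-MT2/Empty, against 377, 381 and 419 in Empty/Empty. Its call against Empty/T618I, -0.28 (SE 0.09, edgeR adjusted p = 0.0153), was lost without Asxl1-MT2/T618I library A, where the adjusted p was 0.0936. Mcm3 also fell against Asxl1-MT2/Empty and Empty/Empty, and these calls were lost under 8 and 11 alternatives, with adjusted p up to 0.210 and 0.235. Mcm5, the subunit with the highest level per kb, was at 410.1, 432 and 443 CPM in Asxl1-MT2/T618I, 439.8, 454 and 465 in Empty/T618I, 477, 436 and 414 in Asxl1-MT2/Empty, against 435, 447 and 463 in Empty/Empty, and no comparison of it passed the test. Mcm2 was at 306, 335 and 382 CPM in Asxl1-MT2/T618I, 379, 407 and 414 in Empty/T618I, 412, 418 and 395 in Asxl1-MT2/Empty, against 362, 371 and 417 in Empty/Empty. Mcm4 was at 268, 280.0 and 303 CPM in Asxl1-MT2/T618I, 301, 324 and 345 in Empty/T618I, 317, 305 and 339 in Asxl1-MT2/Empty, against 329, 337 and 335 in Empty/Empty. Both fell in some comparisons of Asxl1-MT2/T618I, Mcm2 against the groups with 1 insert and Mcm4 against Empty/Empty, and each of those calls was lost without Asxl1-MT2/T618I library A and without its library B, with adjusted p up to 0.189. Orc6 fell in Asxl1-MT2/T618I against Empty/T618I and rose in Empty/T618I against Empty/Empty, and both calls were lost under 5 or more alternatives, with adjusted p up to 0.149. Cdt1, which loads the ring with Cdc6, passed the test in no comparison, with group means of 128 ± 7.05 CPM in Asxl1-MT2/T618I, 132 ± 4.89 in Empty/T618I, 129.6 ± 7.90 in Asxl1-MT2/Empty, against 139 ± 15.04 in Empty/Empty.

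The promoters of 4 genes that show these opposite directions are given, E2f2 and Ccne1, which were higher with T618I, and Mcm6 and Mcm7, which were lower, from RefSeq on GRCm38.p6. Each runs from 250 bases before to 50 bases after the annotated start, 5′ to 3′ on the gene's strand, and capitals mark matches to the motifs searched on both strands: TTTCCCGC, TTTGGCGC, TTTCGCGC and TTTGCCGC for E2F, and CCAAT for NF-Y. E2f2 is chr4:136172024-136172323 on the plus strand, Ccne1 is chr7:38107441-38107740 on the minus strand, Mcm6 is chr1:128359656-128359955 on the minus strand and Mcm7 is chr5:138171834-138172133 on the minus strand.
E2f2: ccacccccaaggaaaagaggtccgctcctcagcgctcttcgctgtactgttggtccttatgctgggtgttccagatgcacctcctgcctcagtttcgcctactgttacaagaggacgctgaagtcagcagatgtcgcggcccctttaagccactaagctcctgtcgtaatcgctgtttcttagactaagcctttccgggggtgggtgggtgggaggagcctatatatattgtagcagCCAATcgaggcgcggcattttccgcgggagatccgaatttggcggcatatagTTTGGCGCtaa
Ccne1: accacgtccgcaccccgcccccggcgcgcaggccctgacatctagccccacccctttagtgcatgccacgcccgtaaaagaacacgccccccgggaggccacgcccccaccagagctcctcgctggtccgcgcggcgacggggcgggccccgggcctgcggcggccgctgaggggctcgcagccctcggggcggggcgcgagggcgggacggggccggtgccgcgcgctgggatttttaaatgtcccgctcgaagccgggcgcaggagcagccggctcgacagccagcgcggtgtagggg
Mcm6: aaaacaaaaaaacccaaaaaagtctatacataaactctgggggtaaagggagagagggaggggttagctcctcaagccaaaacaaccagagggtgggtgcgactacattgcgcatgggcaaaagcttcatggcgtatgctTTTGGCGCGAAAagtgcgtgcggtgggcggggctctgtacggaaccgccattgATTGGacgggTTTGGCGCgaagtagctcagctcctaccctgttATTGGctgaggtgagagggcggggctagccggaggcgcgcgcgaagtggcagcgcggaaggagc
Mcm7: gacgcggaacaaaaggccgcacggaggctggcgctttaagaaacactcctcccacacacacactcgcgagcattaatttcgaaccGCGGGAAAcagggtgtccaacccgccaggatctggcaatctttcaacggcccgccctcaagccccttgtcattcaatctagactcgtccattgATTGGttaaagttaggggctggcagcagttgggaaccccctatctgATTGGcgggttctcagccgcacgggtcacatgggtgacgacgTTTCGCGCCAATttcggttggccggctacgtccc
With the first base of the RefSeq start counted as 1, E2f2 has an E2F match at base 40 and an NF-Y match at base -13, and Ccne1 has no match in this window. The gene positions given above, from GENCODE, start E2f2 downstream of its printed window and Mcm7 upstream of its printed window. RefSeq lists a second promoter for E2f2 at chr4:136180532-136180831, with 0 E2F and 3 NF-Y matches, and for Mcm7 at chr5:138171217-138171516, with 0 and 1, and neither is printed. Mcm6 has 3 E2F matches, of which 2 overlap, and 2 NF-Y matches in reverse. The Mcm7 promoter printed has 2 E2F matches and 3 NF-Y matches, and its E2F match at base 17 overlaps an NF-Y match. Rpa3 and Rpa2 also fell in Asxl1-MT2/T618I against Asxl1-MT2/Empty, Rpa3 with a smaller adjusted p than Mcm6 or Mcm7. Their promoters, not printed, have 0 E2F matches each, and 2 and 3 NF-Y matches.

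Of the 48 genes, 40 matched the RefSeq promoter table, with 46 promoters in all. An E2F match was found in 15 of the 46 promoters, or 32.6%, against 2.26% of the 32851 promoters in the table. NF-Y matches were found in 56.5% of the 46 and in 37.4% of all. Among genes with a promoter, an E2F match was held by 1 of the 4 called higher in Asxl1-MT2/T618I against Asxl1-MT2/Empty, 6 of the 17 called lower and 8 of the 19 not called. A match describes the letters only.

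None of the 6 helicase activation genes was called in Asxl1-MT2/T618I against Empty/T618I, where 43.9% of all genes were called. Against Asxl1-MT2/Empty, 3 fell, or 50% of the group, where 49.8% of all genes were called and 22.8% were lower. The log2 fold change was -0.23 (SE 0.07, edgeR adjusted p = 0.0182) for Cdc45, the helicase cofactor, -0.28 (SE 0.11, edgeR adjusted p = 0.0343) for Gins2 and -0.29 (SE 0.08, edgeR adjusted p = 0.00545) for Gins4. Gins4 was at 46.8, 48.5 and 49.3 CPM in Asxl1-MT2/T618I, 46.7, 48.6 and 47.9 in Empty/T618I, 61.99, 58.5 and 56.1 in Asxl1-MT2/Empty, against 58.1, 53.1 and 54.9 in Empty/Empty, so that its 6 libraries with T618I were all below its 6 libraries without it. The Gins4 call against Asxl1-MT2/Empty held under every alternative other than the swapped labels. Its calls against Empty/Empty did not: the one in Asxl1-MT2/T618I was lost under 10 of the 19 alternatives, with adjusted p up to 0.136, and the one in Empty/T618I under 15, with adjusted p up to 0.181. The Cdc45 call was lost without Asxl1-MT2/T618I library A and without Asxl1-MT2/Empty library A, and the Gins2 call under 6 alternatives, with adjusted p up to 0.0883 and 0.159. Most exon bases of Gins2, 67.3%, are shared with Gse1 on the opposite strand. Mcm10, Gins1 and Gins3 were called nowhere, with log2 fold changes between -0.24 and 0.10 in the 4 pairwise comparisons with T618I in a group.

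Among the 9 polymerase and primase genes, 4 fell in each comparison of Asxl1-MT2/T618I with another group, 1 fell in Empty/T618I against Empty/Empty, and none rose. The 4 are 44.4% of the group, a share close to that of all genes called in either direction and above that of all genes called lower. Pola1, the catalytic subunit of polymerase alpha, lies at chrX:93304767-93632155 and was at 55.1, 50.6 and 65.4 CPM in Asxl1-MT2/T618I, 72.96, 78.9 and 89.2 in Empty/T618I, 69.2, 72.8 and 90.1 in Asxl1-MT2/Empty, against 80.3, 84.99 and 93.5 in Empty/Empty. The Asxl1-MT2/T618I libraries were below all others, and the other groups overlapped. Its log2 fold change was -0.49 (SE 0.12, edgeR adjusted p = 0.00256) against Empty/T618I, -0.44 (SE 0.12, edgeR adjusted p = 0.00501) against Asxl1-MT2/Empty and -0.60 (SE 0.12, edgeR adjusted p = 0.000415) against Empty/Empty. Pold2, a small subunit of polymerase delta at chr11:5872180-5878292, was at 83.98, 95.4 and 96.9 CPM in Asxl1-MT2/T618I, 139, 147 and 112 in Empty/T618I, 124, 137 and 127 in Asxl1-MT2/Empty, against 172, 143 and 113 in Empty/Empty. The Asxl1-MT2/T618I libraries were again the lowest 3, and the other groups spread widely. Its log2 fold change was -0.53 (SE 0.13, edgeR adjusted p = 0.00328) against Empty/T618I, -0.49 (SE 0.13, edgeR adjusted p = 0.00456) against Asxl1-MT2/Empty and -0.63 (SE 0.13, edgeR adjusted p = 0.000601) against Empty/Empty. At 0.646 times its Empty/Empty level, Pold2 had the largest fall in the set in that comparison.

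Prim2, the large primase subunit, was lower with T618I. It was at 45.97, 53.99 and 55.8 CPM in Asxl1-MT2/T618I, 53.4, 53.5 and 49.9 in Empty/T618I, 64.6, 61.3 and 67.96 in Asxl1-MT2/Empty, against 64.8, 67.99 and 65.4 in Empty/Empty. All libraries with T618I lay below all without it, at a log2 fold change of -0.34 (SE 0.09, edgeR adjusted p = 0.00538) in Empty/T618I against Empty/Empty and -0.31 (SE 0.09, edgeR adjusted p = 0.00598) in Asxl1-MT2/T618I against Asxl1-MT2/Empty, while Asxl1-MT2/T618I against Empty/T618I gave -0.01 (SE 0.09, edgeR adjusted p = 0.935). Pole, the catalytic subunit of polymerase epsilon, fell in all 3 comparisons of Asxl1-MT2/T618I, with log2 fold changes of -0.30 against Empty/T618I, -0.28 against Asxl1-MT2/Empty and -0.40 against Empty/Empty. The first was lost without Asxl1-MT2/T618I library A, without its library B and without Empty/T618I library C, and the second under 5 alternatives that each left out 1 library, with adjusted p up to 0.137. Pola2 fell against Empty/T618I with a log2 fold change of -0.24 (SE 0.07, edgeR adjusted p = 0.0153), a call lost without Asxl1-MT2/T618I library A at an adjusted p of 0.0637. Prim1, Pold1, Pold3 and Pole2 were called nowhere, at log2 fold changes of -0.24 to 0.04 in the 4 comparisons with T618I.

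RPA, which coats single-stranded DNA at the fork, had 2 subunits that fell and 1 that was called in no comparison. Of the 9 genes of clamp, loader and RPA, 2 fell in Asxl1-MT2/T618I against Empty/T618I, 5 against Asxl1-MT2/Empty and 3 against Empty/Empty. Those are 22.2%, 55.6% and 33.3% of the group, where 43.9%, 49.8% and 50.6% of all genes were called. By direction, 18.5%, 22.8% and 23.1% of all genes were lower. Rpa2 was at 53.2, 59.00 and 61.1 CPM in Asxl1-MT2/T618I, 71.5, 70.1 and 72.5 in Empty/T618I, 75.7, 79.5 and 83.1 in Asxl1-MT2/Empty, against 76.5, 72.2 and 86.6 in Empty/Empty. The Asxl1-MT2/T618I libraries were the 3 lowest. The log2 fold change was -0.46 (SE 0.09, edgeR adjusted p = 0.00029) against Asxl1-MT2/Empty, -0.44 (SE 0.09, edgeR adjusted p = 0.000422) against Empty/Empty and -0.30 (SE 0.09, edgeR adjusted p = 0.00893) against Empty/T618I, and the last was at an adjusted p of 0.0504 without Asxl1-MT2/T618I library A. Rpa3 (chr6:8255936-8259173) was at 25.4, 24.5 and 27.1 CPM in Asxl1-MT2/T618I, 27.2, 30.9 and 27.03 in Empty/T618I, 41.03, 40.7 and 36.8 in Asxl1-MT2/Empty, against 30.5, 31.7 and 37.97 in Empty/Empty. It had the largest fall of the set in Asxl1-MT2/T618I against Asxl1-MT2/Empty, a log2 fold change of -0.62 (SE 0.10, edgeR adjusted p = 9.95e-05), or 0.649 times the Asxl1-MT2/Empty level, with no overlap. Its Asxl1-MT2/Empty level was above Empty/Empty by 0.24 without passing the test (edgeR adjusted p = 0.364), and against Empty/Empty the Asxl1-MT2/T618I value was -0.38 (SE 0.11, edgeR adjusted p = 0.00663). Rpa1, the large subunit, was at 209, 219 and 212 CPM in Asxl1-MT2/T618I, 217, 207 and 211 in Empty/T618I, 217, 197 and 207 in Asxl1-MT2/Empty, against 183, 206 and 213 in Empty/Empty, with overlapping groups and no call.

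Pcna, the sliding clamp, had the second highest level per kb in the set and was called nowhere. It was at 330.0, 361 and 365 CPM in Asxl1-MT2/T618I, 388, 393 and 339 in Empty/T618I, 372, 347 and 347 in Asxl1-MT2/Empty, against 368, 364 and 386 in Empty/Empty, and every group overlapped every other. Its log2 fold change was -0.08 (SE 0.08, edgeR adjusted p = 0.404) in Asxl1-MT2/T618I against Empty/T618I and 0.00 (SE 0.08, edgeR adjusted p = 0.987) in Empty/T618I against Empty/Empty. Of the 5 clamp loader genes, Rfc4 fell in all 3 comparisons of Asxl1-MT2/T618I, with log2 fold changes of -0.31 against Empty/T618I, -0.30 against Asxl1-MT2/Empty and -0.29 against Empty/Empty. Each of these calls was lost without Asxl1-MT2/T618I library B, and the last also without Empty/Empty library A or C, at adjusted p up to 0.112. Rfc1 and Rfc5 fell against Asxl1-MT2/Empty, at -0.22 and -0.20, and these calls were lost under 9 and 12 of the alternatives, with adjusted p up to 0.155. Rfc2 and Rfc3 were called nowhere.

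Fen1 and Lig1 trim and seal Okazaki fragments. Fen1 was at 144, 140.1 and 153 CPM in Asxl1-MT2/T618I, 156, 166 and 173 in Empty/T618I, 191, 195 and 177 in Asxl1-MT2/Empty, against 158, 162 and 193 in Empty/Empty. All 3 Asxl1-MT2/T618I libraries were below the other 9. The log2 fold change was -0.36 (SE 0.09, edgeR adjusted p = 0.00205) against Asxl1-MT2/Empty and -0.23 (SE 0.09, edgeR adjusted p = 0.0341) against Empty/Empty, where the call was lost without Asxl1-MT2/T618I library A or B or Empty/Empty library C, at adjusted p up to 0.186. Against Empty/T618I the value was -0.18 (edgeR adjusted p = 0.106). Lig1 was at 219, 211 and 219 CPM in Asxl1-MT2/T618I, 228, 215 and 235 in Empty/T618I, 246, 227 and 233 in Asxl1-MT2/Empty, against 232, 239.7 and 241 in Empty/Empty, and passed the test in no comparison.

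**Figure D3:**
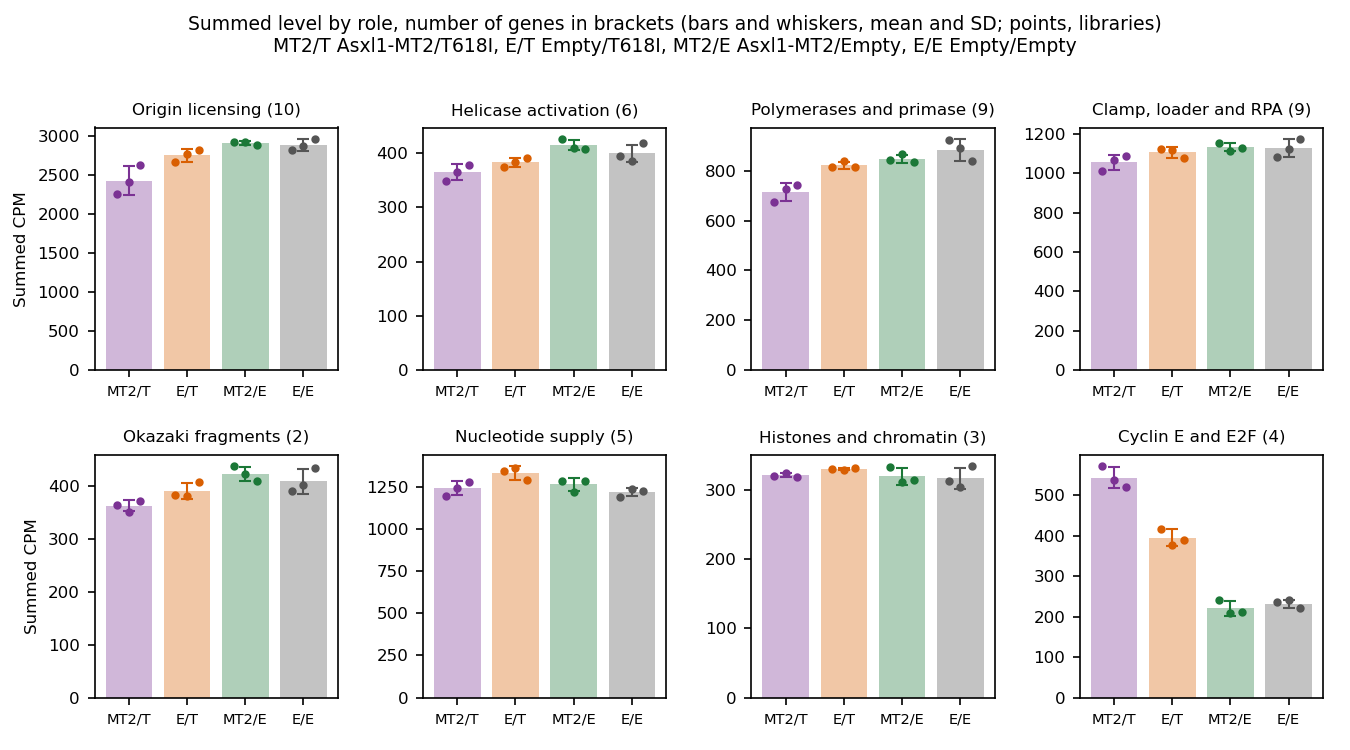
Summed CPM of each role's genes per library (points), with group means and SDs (bars and whiskers). Licensing and polymerase sums are lowest in Asxl1-MT2/T618I, with means of 2430 and 715 CPM against 2753 and 823 in Empty/T618I, and the cyclin E and E2F sum is highest there, at 544 CPM against 232 in Empty/Empty.

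Of the 5 nucleotide supply genes, Rrm2 and Dut rose in Empty/T618I against Empty/Empty. That is 40% of the group, where 33.5% of all genes were called and 17.6% were higher. Rrm2, the regulated subunit of ribonucleotide reductase, was the most abundant gene of the set per kb and was at 454, 494 and 506 CPM in Asxl1-MT2/T618I, 509, 513 and 488 in Empty/T618I, 441, 388 and 430.0 in Asxl1-MT2/Empty, against 396, 417 and 398 in Empty/Empty. All libraries with T618I lay above all without it. Its log2 fold change was 0.32 (SE 0.07, edgeR adjusted p = 0.00277) in Empty/T618I against Empty/Empty, 0.27 (SE 0.07, edgeR adjusted p = 0.00675) in Asxl1-MT2/T618I against Empty/Empty and 0.21 (SE 0.07, edgeR adjusted p = 0.0282) against Asxl1-MT2/Empty. The second was lost under library totals, at an adjusted p of 0.136, and the last under 6 alternatives, among them Asxl1-MT2/T618I library B or C or Asxl1-MT2/Empty library B left out, with adjusted p up to 0.273. Rrm1, the partner subunit, was at 438, 428 and 437 CPM in Asxl1-MT2/T618I, 452, 462 and 485 in Empty/T618I, 480.1, 481 and 526 in Asxl1-MT2/Empty, against 457, 475 and 491 in Empty/Empty. It fell against Asxl1-MT2/Empty, at -0.19 (SE 0.07, edgeR adjusted p = 0.0324), a call lost under 10 alternatives with adjusted p up to 0.124, and was not called elsewhere.

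Dut, the dUTPase that keeps uracil out of DNA, had its highest group mean in Empty/T618I, whose lowest library overlapped Asxl1-MT2/Empty. It was at 158, 168 and 178 CPM in Asxl1-MT2/T618I, 225, 233 and 185 in Empty/T618I, 187, 194 and 187 in Asxl1-MT2/Empty, against 167, 175 and 181 in Empty/Empty. Empty/T618I stood above Empty/Empty, while Asxl1-MT2/T618I lay below both Empty/T618I and Asxl1-MT2/Empty and overlapped Empty/Empty. It rose by 0.30 (SE 0.09, edgeR adjusted p = 0.0132) in Empty/T618I against Empty/Empty, lost without Empty/T618I library B or without Empty/Empty library A at adjusted p up to 0.0604. In Asxl1-MT2/T618I against Empty/T618I it fell, at -0.35 (SE 0.09, edgeR adjusted p = 0.00352). Tyms, which makes dTMP, and Tk1, which salvages thymidine, were called nowhere, with values between -0.30 and 0.14 in the 4 comparisons with T618I. A pseudogene of Tyms is also counted in the table, so reads could be split between them.

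Genes of histone mRNA handling and chromatin assembly were called in 1 comparison, 1 in each direction. That is 66.7% of the group, where 49.8% of all genes were called. Slbp, which binds histone mRNA, rose by 0.25 (SE 0.09, edgeR adjusted p = 0.0263) on the log2 scale in Asxl1-MT2/T618I against Asxl1-MT2/Empty, and Chaf1b, a chromatin assembly factor subunit, fell, at -0.23 (SE 0.09, edgeR adjusted p = 0.0347). The Slbp call was lost under 5 alternatives, library totals among them, and the Chaf1b call under 7, with adjusted p up to 0.183 and 0.0981. Chaf1a was called nowhere, and 52.5% of its exon bases are shared with Ubxn6 on the opposite strand.

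The change with T618I was compared with and without Asxl1-MT2 through pairs of groups that share no library. Of the 26 genes called with Asxl1-MT2 and the 10 called without it, 8 were called in the same direction in both: Mcm6, Mcm7, Gins4, Prim2, Rrm2, Ccne1, Ccne2 and E2f2, of which Mcm6, Mcm7 and Gins4 lost the call without Asxl1-MT2 under some alternatives, as given above. These are 30.8% of the first list and 80% of the second, against 45.3% and 67.3% over all genes tested, and no gene of the set was called in opposite directions. The difference between the changes was itself tested as an interaction, and 2 of the 48 genes, 4.17%, passed it, against 19.6% of all genes. The Asxl1 level also differed between the groups with Asxl1-MT2, as given above, and its part in the interaction was not tested. The T618I change of E2f2 was larger with Asxl1-MT2 than without it, by 1.33 (SE 0.17, edgeR adjusted p = 5.01e-05) on the log2 scale. For Dut the difference was -0.47 (SE 0.12, edgeR adjusted p = 0.0122): its T618I change was -0.17 with Asxl1-MT2, where it was not called, and 0.30 without it. The remaining 46 ranged between -0.39 and 0.15, with an adjusted p above 0.05 for each, and 10 of the 48 had an unadjusted p below 0.05. The count of 2 became 10 under library totals, 10 with the letter C libraries left out, 4 without Asxl1-MT2/T618I library C and 6 without Empty/Empty library C, and E2f2 and Dut were among them each time. When 1 Empty/Empty library was moved into Empty/T618I the count was at most 4 and held neither gene, at adjusted p of 0.0618 to 0.0973 for E2f2 and 0.0707 to 0.232 for Dut.

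**Figure D4:**
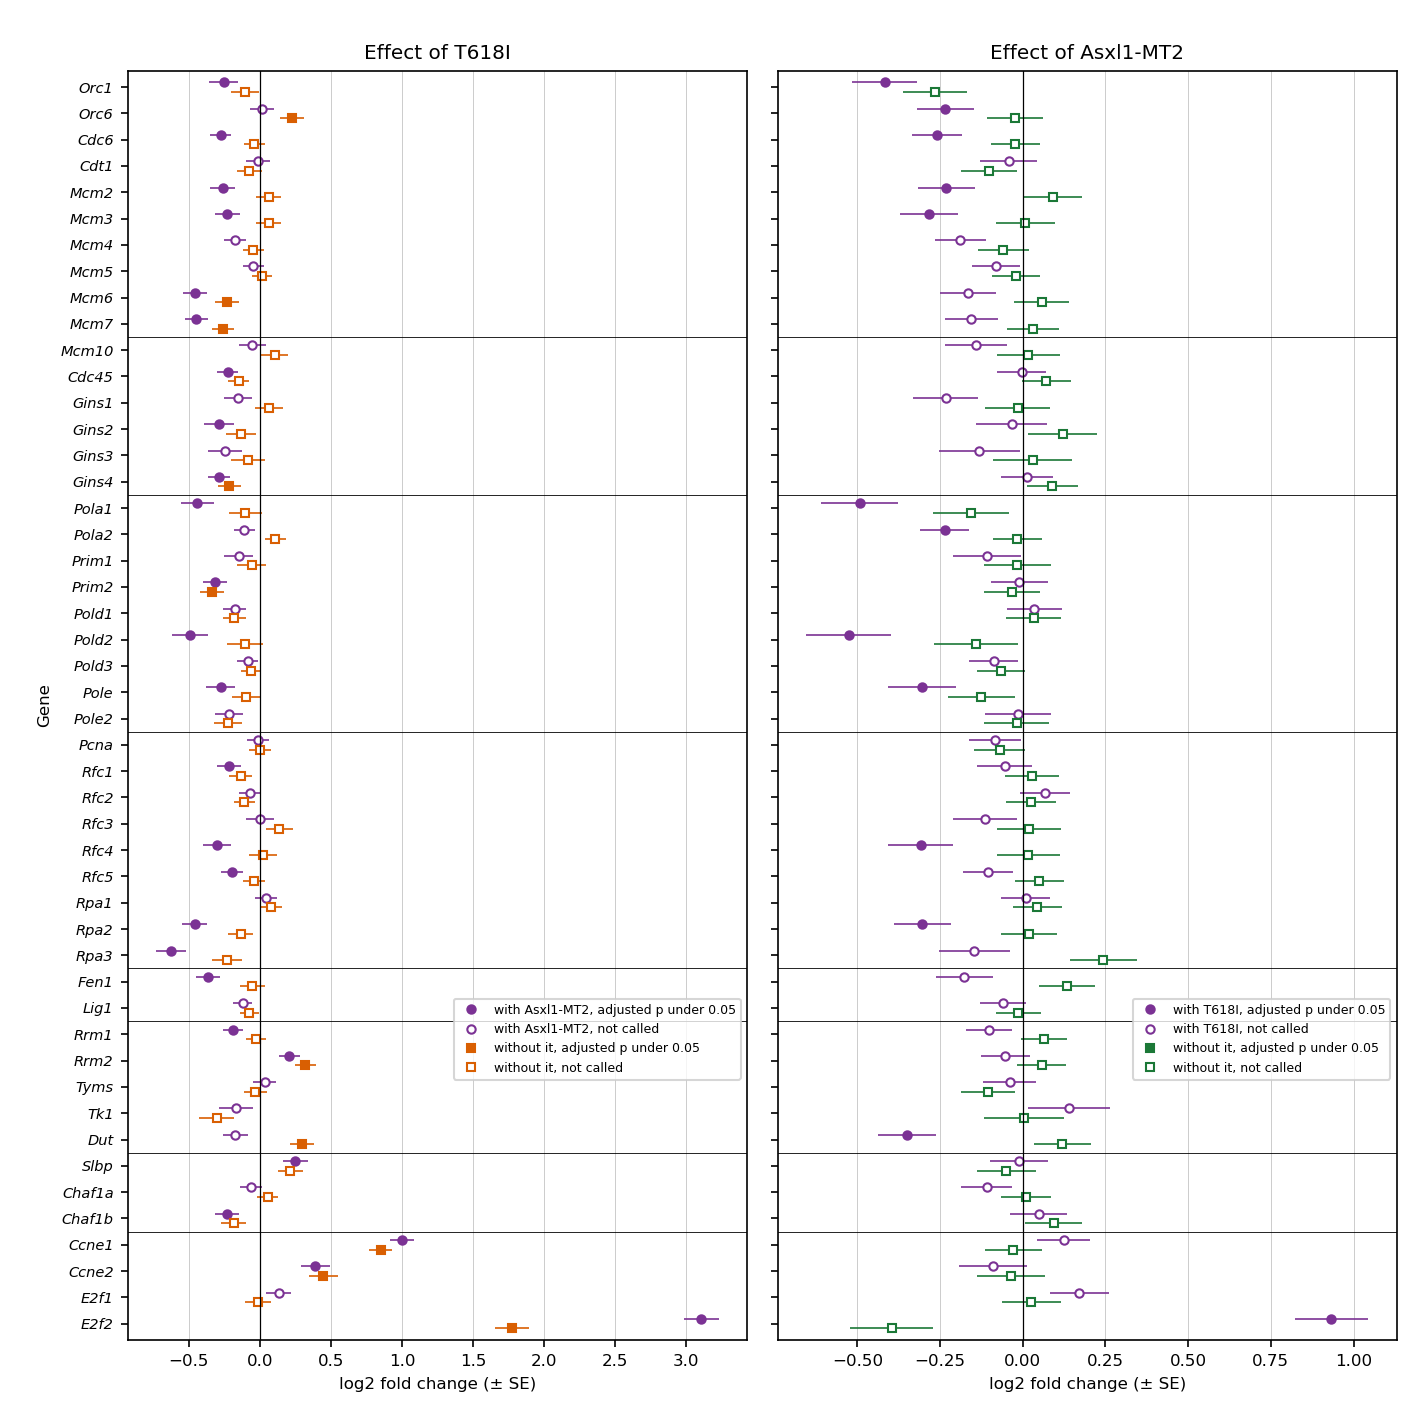
Log2 fold change with SE of each of the 48 genes for T618I (left) and Asxl1-MT2 (right), with the other insert present (circles) and absent (squares), filled where the adjusted p is under 0.05. With T618I absent, none of the 48 genes is called for Asxl1-MT2, and E2f2 is the member farthest right in the left panel and, with T618I present, in the right panel, where with T618I absent it is farthest left.

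Asxl1-MT2 alone left no gene of the set past the threshold. In Asxl1-MT2/Empty against Empty/Empty, 0 of 48 were called by edgeR and 0 by DESeq2, where 1.86% of all genes were called by edgeR, and 3 had an unadjusted p below 0.05. E2f2 was lower at -0.40 (SE 0.13, edgeR adjusted p = 0.155), with 40.04, 33.3 and 28.2 CPM in Asxl1-MT2/Empty, against 44.7, 48.01 and 41.1 in Empty/Empty and no overlap, and without the filter on low counts its adjusted p was 0.0439. Orc1 stood at -0.27 (SE 0.10, edgeR adjusted p = 0.247), also with no overlap, and Rpa3 at 0.24 (SE 0.10, edgeR adjusted p = 0.364). The 48 log2 fold changes lay between -0.40 and 0.24 with a median of 0.01, against 0.00 over all genes.

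Lists of related genes were counted beside the set, and were chosen with earlier results of these data known. Of 31 other replication factors, 11 were lower and 1 higher in Asxl1-MT2/T618I against Empty/T618I, 11 and 1 against Asxl1-MT2/Empty, and 3 lower and 4 higher in Empty/T618I against Empty/Empty. That is 38.7% called in each of the first 2 comparisons, below the 43.9% and 49.8% of all genes, and 22.6% against 33.5% in the last. By direction, 18.5% and 22.8% of all genes were lower in the first 2, and 25.4% and 26.9% higher. In the last, 15.9% were lower and 17.6% higher. In Asxl1-MT2/T618I against Empty/T618I, those with the smallest p-values were Orc2 at -0.48, Tipin, of the fork protection complex, at -0.40, Rif1, an origin timing factor, at -0.48 and Pold4, a polymerase delta subunit, at 0.95. Pold4 was at -0.96 (edgeR adjusted p = 0.005) in Empty/T618I against Empty/Empty, so its rise starts from a lowered level. Orc3, a subunit of the origin recognition complex, was at -0.43 (edgeR adjusted p = 0.000129) in Asxl1-MT2/T618I against Asxl1-MT2/Empty. Of 16 checkpoint genes, 7 were lower and 1 higher in Asxl1-MT2/T618I against Empty/T618I, or 50% called, near the 43.9% of all genes. In that comparison 18.5% of all genes were lower and 25.4% higher. Atr, the kinase that senses stalled forks, was at 21.02, 21.1 and 27.1 CPM in Asxl1-MT2/T618I, 35.4, 37.7 and 46.5 in Empty/T618I, 30.6, 38.8 and 41.02 in Asxl1-MT2/Empty, against 36.1, 41.2 and 45.3 in Empty/Empty, with a log2 fold change of -0.79 (SE 0.14, edgeR adjusted p = 0.000261) in Asxl1-MT2/T618I against Empty/T618I.

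Other genes of nucleotide synthesis and turnover formed a list of 19. Of these, 15 were lower and 2 higher in Asxl1-MT2/T618I against Empty/T618I, where 18.5% of all genes were lower, and 14 were lower and 3 higher against Asxl1-MT2/Empty. In that last comparison 22.8% of all genes were lower and 26.9% higher. In Empty/T618I against Empty/Empty 8 were higher and 1 lower, where 17.6% of all genes were higher and 15.9% lower. In the interaction 11 were lower and 2 higher, or 68.4% called against 19.6% of all genes. Cad, the first enzyme of pyrimidine synthesis, was at 151, 169.6 and 185 CPM in Asxl1-MT2/T618I, 261, 295 and 301 in Empty/T618I, 194, 224 and 218 in Asxl1-MT2/Empty, against 232, 253 and 229.7 in Empty/Empty. Empty/T618I was the highest group and Asxl1-MT2/T618I the lowest, with no overlap with any other, at -0.76 (SE 0.09, edgeR adjusted p = 3.56e-06) between them and 0.26 (SE 0.09, edgeR adjusted p = 0.0297) in Empty/T618I against Empty/Empty. Gart and Ctps fell, at -0.59 and -0.64, in Asxl1-MT2/T618I against Empty/T618I. Samhd1, which breaks down dNTPs, moved the other way, at 316, 273 and 223 CPM in Asxl1-MT2/T618I, 135, 128 and 144 in Empty/T618I, 86.5, 84.1 and 91.7 in Asxl1-MT2/Empty, against 91.3, 95.03 and 88.6 in Empty/Empty, or 0.995 (SE 0.10, edgeR adjusted p = 6.98e-07) in that comparison.

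Inhibitors of cyclin-dependent kinases and the D cyclins with their kinases were a list of 12. Of the 10 tested, 6 were higher and 4 lower in Asxl1-MT2/T618I against Asxl1-MT2/Empty, where 49.8% of all genes were called. Cdkn1a, which encodes the inhibitor p21, was at 126, 126 and 113 CPM in Asxl1-MT2/T618I, 97.3, 93.9 and 103 in Empty/T618I, 32.4, 30.5 and 33.03 in Asxl1-MT2/Empty, against 35.8, 28.1 and 24.2 in Empty/Empty. Cdkn1a and Cdkn2d rose by 1.74 (SE 0.11, edgeR adjusted p = 2.57e-09) and 1.47 (SE 0.11, edgeR adjusted p = 1.15e-08) in Empty/T618I against Empty/Empty. Cdkn1b, which encodes p27, rose by 0.99 (SE 0.10, edgeR adjusted p = 1.12e-06) in Asxl1-MT2/T618I against Empty/T618I, and was at 0.00 with T618I alone. Ccnd2 was at 37.4, 40.4 and 54.1 CPM in Asxl1-MT2/T618I, 53.1, 64.7 and 47.5 in Empty/T618I, 152, 168 and 202 in Asxl1-MT2/Empty, against 187, 193 and 199 in Empty/Empty, and Ccnd3 at 888, 811 and 721 CPM in Asxl1-MT2/T618I, 557, 533 and 504 in Empty/T618I, 326, 314 and 289 in Asxl1-MT2/Empty, against 351, 294 and 268 in Empty/Empty, 2 D cyclins that bind Cdk4 and Cdk6. Ccnd2 fell and Ccnd3 rose in both comparisons of a group with T618I with its counterpart without it.

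Of 23 mitotic genes, 13 were higher and 0 lower (8 and 2 under library totals) in Asxl1-MT2/T618I against Asxl1-MT2/Empty and 9 higher and 0 lower in Empty/T618I against Empty/Empty. These are 56.5% and 39.1% of the list called, against 49.8% and 33.5% of all genes, of which 26.9% and 17.6% were called higher. In Asxl1-MT2/T618I against Empty/T618I 3 were higher, and under scaling by library totals this became 1 higher and 5 lower. Cdc25b, a phosphatase that activates Cdk1, was at 154, 129 and 116 CPM in Asxl1-MT2/T618I, 72.5, 67.00 and 69.3 in Empty/T618I, 30.7, 31.3 and 31.1 in Asxl1-MT2/Empty, against 29.8, 29.9 and 28.1 in Empty/Empty, or 2.10 (SE 0.10, edgeR adjusted p = 2.26e-11) against Asxl1-MT2/Empty. Kif23 and Nusap1 rose by 0.43 and 0.45 in that comparison. Of 10 genes listed for chromatin replication, 5 were lower and 0 higher in Asxl1-MT2/T618I against Empty/T618I, Rbbp7 at -0.45 among them, which is 50% called against 43.9% of all genes. In that comparison 18.5% of all genes were lower. The 21 genes of RB and E2F control split evenly there, 4 higher and 4 lower, with Rb1 at 0.44 and Skp2 at -0.40. That is 38.1% called against 43.9% of all genes, of which 25.4% were higher and 18.5% lower. Under library totals 2 of the 21 were higher and 7 lower.

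**Figure D5:**
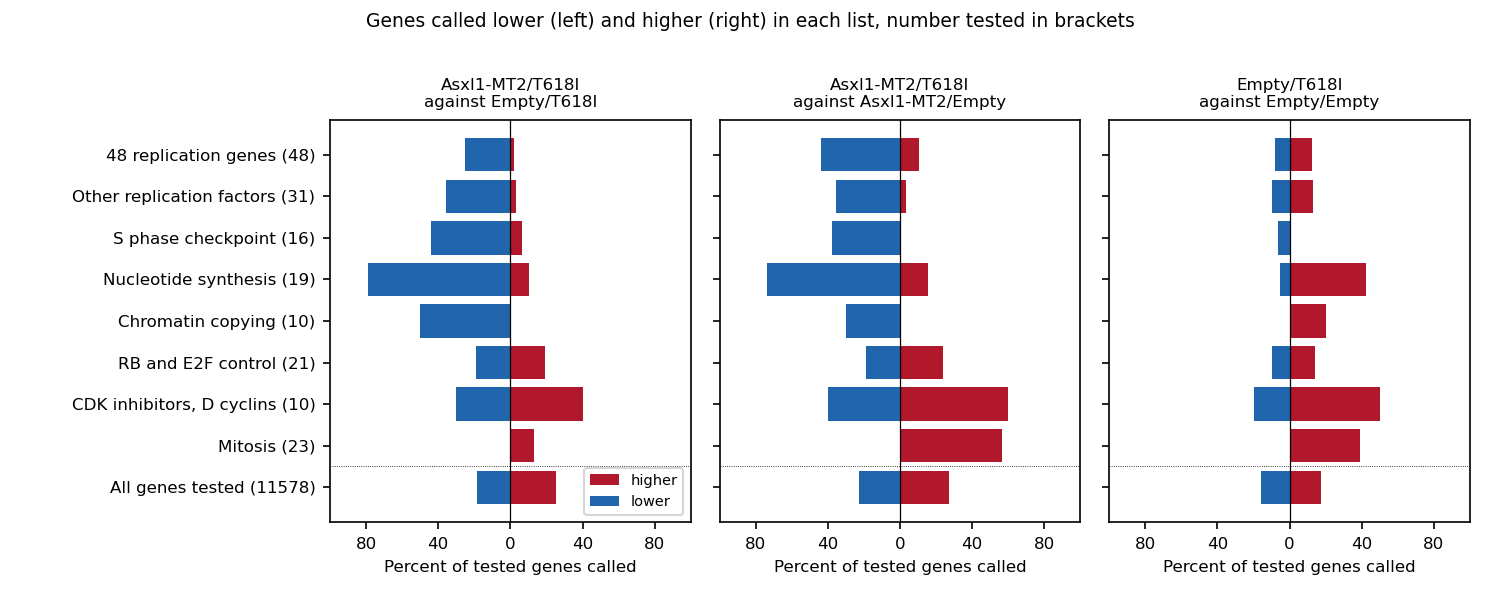
Percent of tested genes called lower (left, blue) and higher (right, red) in the 48 replication genes, 7 related lists and all genes tested, for 3 comparisons. Nucleotide synthesis genes are lower in 15 of 19 cases in Asxl1-MT2/T618I against Empty/T618I, while mitotic genes are called higher and none lower, which under library totals holds for the last comparison alone.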

How the data were processed

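The authors deposited raw counts by gene symbol, in 1 table with a column for each of 12 libraries. The submitters' processing notes name mm10, Trimmomatic, STAR and DESeq2, without roles or versions. The counting tool, annotation and strand setting are not given in the sources used here. Without strand, reads of genes that overlap cannot be told apart, and 10 of the 48 genes share exon bases with another counted gene.

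Groups were read from the column names. Genes passing filterByExpr were tested with edgeR 4.0.16 (quasi-likelihood, TMM scaling, 1 mean per group over all 12 libraries, Benjamini-Hochberg adjustment over 11578 genes, threshold 0.05) in R 4.3.3. The interaction is the T618I change with Asxl1-MT2 minus that without it. Levels are CPM, normalised counts on the TMM-scaled size, and levels per kb use GENCODE M21 exons on GRCm38. Those exons were merged over all annotated transcripts of a gene, so ranks by level per kb also depend on the annotation. Alternatives were DESeq2 1.42.0, 2 other scalings, no filter, only the groups compared, column letters as a block, letter C left out, each library left out, and each Empty/Empty library counted as Empty/T618I, 22 in all. The script was tested on simulated data. Nothing links letters to the titles' numbers, and the letters were not taken as pairs. Replicate libraries differed by more than sampling noise. The members, lists and named genes were chosen with earlier results of these data known. Per comparison, the rule for values per library took the 8 called members with the smallest adjusted p and the 4 uncalled members with the highest level. From each related list it took up to 4 called genes with the smallest adjusted p. Gins4, E2f1 and Rpa1 are given per library outside that rule.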

Additional observations from a re-analysis of the deposited data

Results flagged for a closer look

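For 2 of the 48 genes the T618I change differed with and without Asxl1-MT2 by the interaction test. E2f2 had an interaction of 1.33 on the log2 scale (SE 0.17, edgeR adjusted p = 5.01e-05), from a T618I change of 3.11 with Asxl1-MT2 and 1.78 without it, higher in 3 of 3 libraries of each group with T618I. Dut had an interaction of -0.47 (SE 0.12, edgeR adjusted p = 0.0122), from changes of -0.17 with Asxl1-MT2 and 0.30 without it, with no overlap in either pair of groups. Both calls held under 18 alternatives and were lost when Empty/Empty library A, B or C was counted as Empty/T618I. As given above, Socs3 in each of those libraries lay far below every library with T618I, so these swaps mix unlike libraries.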

How the results depend on the processing

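Counts of called members are given in the order Asxl1-MT2/T618I against Empty/T618I, against Asxl1-MT2/Empty and against Empty/Empty, Empty/T618I against Empty/Empty, Asxl1-MT2/Empty against Empty/Empty, and interaction, where the values above are 13, 26, 19, 10, 0 and 2. Library totals gave 27, 33, 36, 8, 0 and 10, the letter as a replicate block 15, 28, 21, 12, 0 and 7, letter C left out 18, 26, 28, 10, 0 and 10, and no low-count filter 12, 22, 18, 9, 1 and 2. Counting Empty/Empty A as Empty/T618I gave 11, 14, 14, 0, 0 and 0, B gave 12, 14, 14, 0, 0 and 0, and C gave 17, 20, 13, 2, 0 and 4. Leaving out 1 library gave 7 to 16, 14 to 26, 15 to 20, 6 to 11, 0 to 0 and 2 to 6. The cause was not tested. DESeq2 and its size factors stayed within 1.5 times of each count. Among called named members, 700 alternative values kept the call, 46 missed the threshold and 0 changed sign. Sign changes occurred for uncalled log2 fold changes near 0. Leaving out 1 library gave -0.031 to 0.031 for Pcna and -0.093 to 0.0098 for Mcm5 in Asxl1-MT2/T618I against Asxl1-MT2/Empty, -0.052 to 0.023 for Rrm1 and -0.0078 to 0.062 for Mcm5 in Empty/T618I against Empty/Empty, and -0.015 to 0.058 for Mcm7 in Asxl1-MT2/Empty against Empty/Empty. With Empty/Empty A or C counted as Empty/T618I, Rrm2 was at 0.0105 and 0.0102 in Asxl1-MT2/T618I against Empty/T618I. With A so counted Mcm5 was at -0.00036, and with C Rrm1 was at 0.0339, in Empty/T618I against Empty/Empty, and with C Mcm7 was at -0.0145 in Asxl1-MT2/Empty against Empty/Empty. Deviations from the group means correlated at -0.0703 to 0.255 between libraries of the same letter in different groups, over 0.1 in 7 of 18 pairs. Among Empty/T618I, Asxl1-MT2/Empty and Empty/Empty, the A with A and C with C pairs were at 0.176 to 0.255 and the A with C pairs at -0.262 to -0.139, so these libraries share some structure by letter, while no B with B pair was over 0.1. A library correlated best with its own letter in 20 of 36 cases, which is a hint from the data and not part of the design.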
